A study of Mus musculus with 24 samples.

Results

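Phlda1 and 9 other genes that are commonly transcribed in response to ERK signalling were followed through the tumours of a mouse breast cancer study. The genes were Phlda1, Dusp4, Dusp6, Spry2, Spry4, Etv4, Etv5, Egr1, Fosl1 and Ccnd1, found in the gene count table by their Ensembl identifiers, 10 genes of 53465 rows. Phlda1 was chosen from its measured input values, because the departure of its level in tumours given both drugs from the sum of the single-drug effects had one of the smallest p-values among all genes. The other members were chosen because they are known outputs of the same pathway. That choice was made with earlier results of these data known, so it was not independent of them. All 10 passed the filter on low counts in both fits used below. Gene coordinates are those of GRCm38.p6.

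RNA came from 12 transplants of the 2153L tumour, a p53-null mouse model of triple-negative breast cancer, grown in the cleared mammary fat pads of female BALB/c mice that were 6 to 8 weeks old at transplantation. The p53 deletion is shared by the tumours of every group. Drugs were started at a tumour volume of about 100 mm3. Each treatment was given to 3 tumours, called tumours 1, 2 and 3 here. The combination group received docetaxel and ORIN1001. The docetaxel group received docetaxel, a taxane that stabilises microtubules, at 10 mg/kg into the peritoneum every week. The ORIN1001 group received ORIN1001, an inhibitor of the ribonuclease activity of IRE1α, at 150 mg/kg by mouth every day. The vehicle group received vehicle alone, and the single-drug groups also received vehicle. Every tumour gave a J2 library, made from RNA pulled down with the J2 antibody to double-stranded RNA, and an input library from its total RNA, for 24 libraries in 8 groups. The tumours are called biological replicates in the labels. How many different donor tumours the transplanted fragments came from is not given in the sources used here.

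Growth factors bind receptor tyrosine kinases, which activate Ras, Raf, MEK and finally the kinase ERK. Active ERK enters the nucleus, where it phosphorylates transcription factors of the ETS family, and a wave of genes follows. Some of these genes encode brakes that act back on the pathway (the Dusp phosphatases and the Sprouty proteins), some encode transcription factors (Egr1, Fosl1, Etv4, Etv5), and Ccnd1 drives cell division. In human tumours the mRNA levels of several of them are used as a readout of how active the pathway is. ERK phosphorylation itself was not measured here, so the label of the group rests on what these genes are known for.

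Promoter sequence was matched in the RefSeq table of GRCm38.p6 for 3 of the 10 members, Dusp6, Spry2 and Etv5. All 3 had lower input levels in every combination tumour than in any vehicle tumour, so the 250 bases before each start site are shown, on the strand of the gene. Dusp6 lies on the plus strand of chromosome 10 and the bases are chr10:99262981-99263230. Spry2 lies on the minus strand of chromosome 14 and the bases are chr14:105896820-105897069. Etv5 lies on the minus strand of chromosome 16 and the bases are chr16:22439571-22439820. RefSeq also gives another Etv5 start inside the gene, and the bases before it, chr16:22438369-22438618, are not shown. Capitals mark the GC box GGGCGG and the CCAAT box on either strand.
Dusp6: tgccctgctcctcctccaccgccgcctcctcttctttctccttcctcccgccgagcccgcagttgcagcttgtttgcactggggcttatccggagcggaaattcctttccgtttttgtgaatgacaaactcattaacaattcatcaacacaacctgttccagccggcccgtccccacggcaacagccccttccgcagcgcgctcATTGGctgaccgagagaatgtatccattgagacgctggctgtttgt
Spry2: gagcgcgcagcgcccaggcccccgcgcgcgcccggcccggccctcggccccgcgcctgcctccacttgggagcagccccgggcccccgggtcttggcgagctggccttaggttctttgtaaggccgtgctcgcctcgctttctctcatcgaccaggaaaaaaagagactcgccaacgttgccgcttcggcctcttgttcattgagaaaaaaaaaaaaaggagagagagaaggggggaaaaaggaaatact
Etv5: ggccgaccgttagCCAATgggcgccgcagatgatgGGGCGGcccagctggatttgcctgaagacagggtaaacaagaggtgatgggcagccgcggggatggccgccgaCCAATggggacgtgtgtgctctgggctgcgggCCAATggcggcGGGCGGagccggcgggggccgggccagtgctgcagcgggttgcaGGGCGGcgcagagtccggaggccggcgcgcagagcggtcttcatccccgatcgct
The Etv5 sequence held 3 GC boxes and 3 CCAAT boxes, and the Dusp6 sequence held 1 CCAAT box on the minus strand, at positions -46 to -42 from the start site. The Spry2 sequence held neither. The bases before the other Etv5 start held 1 CCAAT box and no GC box. Over 32851 promoter windows of the same length in that table, 32.7% held a GC box and 33.8% a CCAAT box on either strand. None of the 3 sequences held the ETS motif CCGGAAG, the AP-1 motif TGANTCA, the cAMP response element TGACGTCA or a CArG box, the binding sequence of serum response factor. These were found in 6.91%, 6.75%, 1.55% and 1.47% of the windows in that order. Each motif was searched as a fixed pattern, so variants of it were not counted, and binding sites may be present.

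Levels are given in CPM, counts rescaled to a common library size, after TMM scaling over the 24 libraries, which makes libraries of different depth comparable. A level can be compared between tumours for 1 gene, but not between genes, since it is not corrected for gene length. Input libraries held 11850243 to 15654588 gene counts for the combination, 3273101 to 63267669 for docetaxel, 25400196 to 45043045 for ORIN1001 and 28215432 to 34838948 for vehicle. J2 libraries held 2540271 to 11044137 gene counts for the combination, 6686205 to 18698556 for docetaxel, 14145452 to 17400658 for ORIN1001 and 12307014 to 14918868 for vehicle. Docetaxel tumour 3 gave an unusual input: ribosomal RNA loci took 67.6% of its 3273101 counts, while these loci took 0.498% to 3.26% in the remaining 11. In J2 libraries these loci took 22.9% to 57.3% of counts for the combination, 1.29% to 15.6% for docetaxel, 1.37% to 3.44% for ORIN1001 and 4.17% to 6.13% for vehicle. Epithelial markers (Krt8, Krt18, Krt5, Krt14, Epcam, Cdh1) were present in all inputs, with a summed level of 1258 to 1799 CPM in combination, 1452 to 2296 in docetaxel, 1664 to 1759 in ORIN1001 and 1760 to 2290 CPM in vehicle tumours.

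The first comparison asked how the input level of each gene in tumours given both drugs stood against tumours given vehicle. All 10 genes had a negative log2 fold change, and 8 of them were lower in every combination tumour than in any vehicle tumour. Spry2 and Egr1 passed edgeR's quasi-likelihood F test, with p-values adjusted by Benjamini-Hochberg over 17768 genes, and both fell. Ccnd1 and Fosl1 overlapped between the groups. In bulk tumour RNA, fewer cells of a type and less RNA per cell cannot be told apart.

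Phlda1 (ENSMUSG00000020205.8, chromosome 10, 111506286 to 111508649) encodes a protein with a pleckstrin homology-like domain that growth factors induce. Its input level was 201, 171 and 182 CPM in combination, 522, 389 and 419 in docetaxel and 422, 405 and 490.1 in ORIN1001 tumours, against 338, 394.5 and 394 CPM in vehicle tumours. The combination tumours were lower than the other 9 tumours, which spanned 338 to 522 CPM. The mean was 185 ± 15.4 CPM with the combination, 443 ± 69.8 with docetaxel, 439 ± 45 with ORIN1001 and 375.5 ± 32.3 CPM with vehicle (SD, n = 3 each). On the log2 scale the difference from vehicle was -0.98 ± 0.16 (SE) for the combination, 0.21 ± 0.16 for docetaxel and 0.20 ± 0.16 for ORIN1001. The departure of the combination from the sum of both single-drug effects was -1.39 ± 0.23 and stood in place 3 by p-value of 17768 genes. By size it stood in place 1035 among the 8885 negative departures. These values chose the gene, so they describe it and carry no test. The docetaxel 3 input rested on 361 Phlda1 counts, the smallest number among the inputs.

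**Figure D1:**
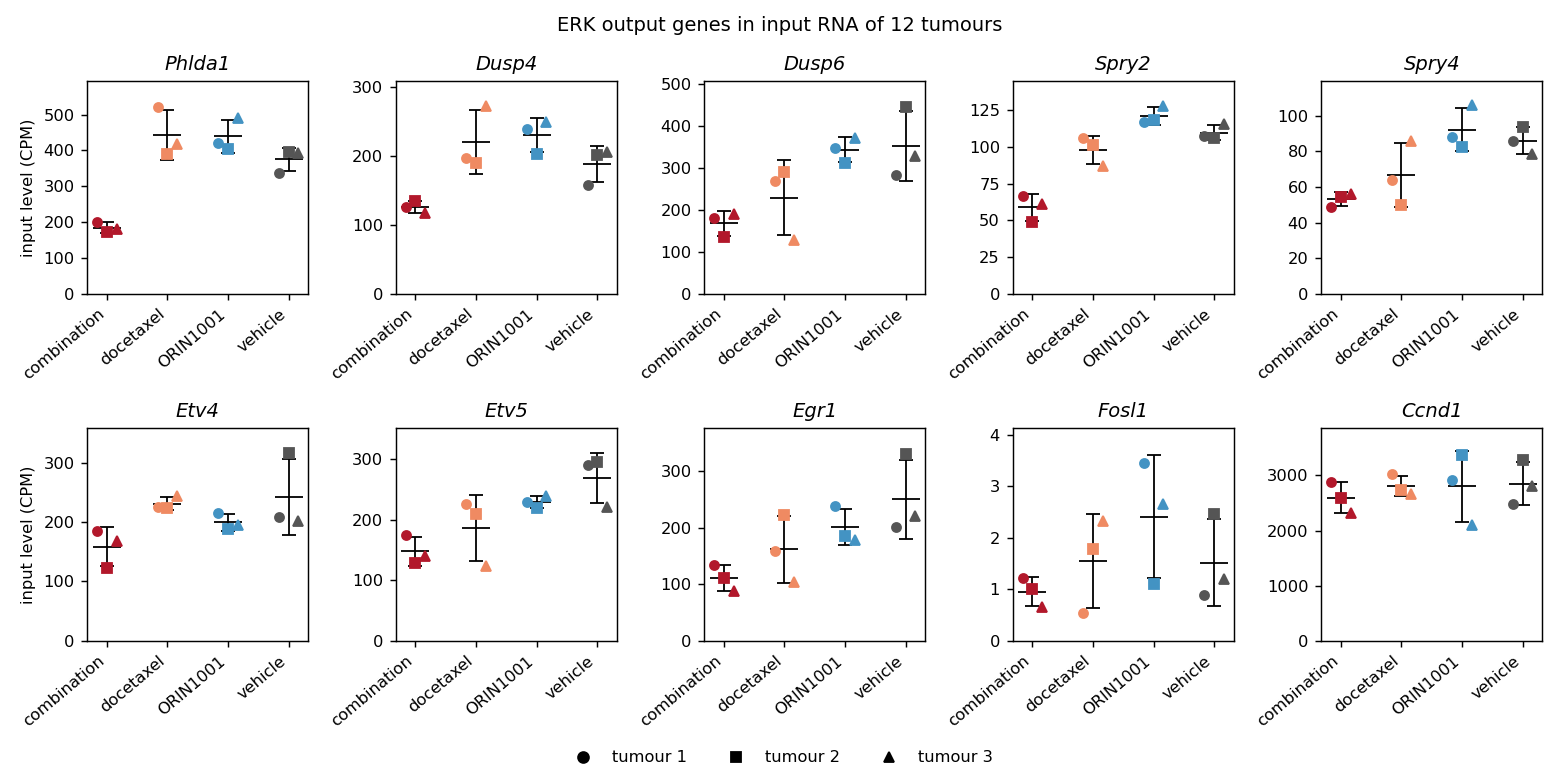
Input levels of the 10 genes in CPM on linear axes that start at 0, for the 12 tumours; each symbol is 1 tumour, horizontal lines are group means and error bars are SD (n = 3). The combination tumours lie below all vehicle tumours for every gene but Fosl1 and Ccnd1, and Phlda1 separates the combination from all 9 other tumours.

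The brakes on the pathway came next. Dusp4 (ENSMUSG00000031530.6, chromosome 8, 34807610 to 34819894), a nuclear phosphatase that acts on ERK and related kinases, had 126, 135 and 118 CPM in combination, 197, 190 and 273 in docetaxel and 239.5, 203 and 249 in ORIN1001 tumours, against 158, 201.5 and 206 CPM in vehicle tumours. All combination tumours were below the other 9. The log2 difference from vehicle was -0.53 ± 0.18 (edgeR adjusted p = 0.0911). Dusp6 (ENSMUSG00000019960.8, chromosome 10, 99263231 to 99267489), a cytoplasmic phosphatase specific for ERK, had 181, 134 and 190 CPM in combination, 269.6, 290.1 and 128 in docetaxel and 348, 310.5 and 371 in ORIN1001 tumours, against 282, 445 and 328 CPM in vehicle tumours. Its combination values lay below the vehicle and ORIN1001 values, while docetaxel tumour 3, the library rich in ribosomal RNA, was lowest of all. The log2 difference between combination and vehicle was -1.01 ± 0.28 (edgeR adjusted p = 0.0551).

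Sprouty proteins act between the receptors and Raf. Spry2 (ENSMUSG00000022114.5, chromosome 14, 105891947 to 105896819) had 66.8, 48.8 and 60.9 CPM in combination, 106, 101 and 87.1 in docetaxel and 117, 118 and 128 in ORIN1001 tumours, against 107, 106 and 116 CPM in vehicle tumours. The combination tumours were below the other 9, and the log2 fold change against vehicle was -0.86 ± 0.15 with an edgeR adjusted p of 0.0348, lower in 3 of 3 tumours. Spry4 (ENSMUSG00000024427.6, chromosome 18, 38586247 to 38601347) had 48.7, 54.2 and 56.2 CPM in combination, 64.1, 50 and 85.9 in docetaxel and 88.1, 82.5 and 106 in ORIN1001 tumours, against 85.9, 93.5 and 78.7 CPM in vehicle tumours. The combination and vehicle tumours did not overlap, at -0.65 ± 0.19 on the log2 scale (edgeR adjusted p = 0.0622), but docetaxel tumour 2 lay among the combination tumours.

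Among the transcription factors, Egr1 (ENSMUSG00000038418.7, chromosome 18, 34861207 to 34864956), an immediate early zinc finger protein, had 133, 111.5 and 87.9 CPM in combination, 159, 223 and 103 in docetaxel and 238, 186 and 179 in ORIN1001 tumours, against 201, 329.9 and 220.3 CPM in vehicle tumours. It fell with the combination against vehicle, by 1.13 ± 0.28 on the log2 scale (edgeR adjusted p = 0.0463), and was lower in 3 of 3 tumours. The mean was 111 ± 22.8 CPM with the combination and 250.3 ± 69.6 CPM with vehicle (SD, n = 3 each). Etv5 (ENSMUSG00000013089.15, chromosome 16, 22381313 to 22439570), an ETS factor of the PEA3 family, had 174, 128 and 140 CPM in combination, 225, 209 and 124 in docetaxel and 229, 219 and 239 in ORIN1001 tumours, against 289, 295 and 221 CPM in vehicle tumours. The combination and vehicle tumours did not overlap, with a log2 difference of -0.82 ± 0.21 and an edgeR adjusted p of 0.0502, just above the threshold of 0.05, so it did not pass. Its relative Etv4 (ENSMUSG00000017724.14, chromosome 11, 101769747 to 101785310) had 186, 122 and 168 CPM in combination, 226, 224 and 244 in docetaxel and 215, 188 and 195 in ORIN1001 tumours, against 208, 316 and 201 CPM in vehicle tumours. Its combination tumours were below the other 9, and the difference from vehicle was -0.56 ± 0.20 (edgeR adjusted p = 0.107).

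Fosl1 and Ccnd1 showed no separation. Fosl1 (ENSMUSG00000024912.5, chromosome 19, 5447698 to 5455938), a partner of Jun proteins in AP-1, had low levels, at 1.21, 1.01 and 0.651 CPM in combination, 0.535, 1.79 and 2.32 in docetaxel and 3.46, 1.11 and 2.65 in ORIN1001 tumours, against 0.89, 2.47 and 1.19 CPM in vehicle tumours. These levels rest on 2 counts in docetaxel tumour 3 and 10 to 188 counts in the other inputs. The log2 difference between combination and vehicle was -0.62 ± 0.58 (edgeR adjusted p = 0.523), an error too wide to show a change of that size. Ccnd1 (ENSMUSG00000070348.5, chromosome 7, 144929931 to 144939831), the cyclin D1 gene, had 2879, 2594 and 2314 CPM in combination, 3019, 2737 and 2668 in docetaxel and 2921, 3371 and 2107 in ORIN1001 tumours, against 2481, 3271 and 2807 CPM in vehicle tumours. Its groups overlapped, at -0.09 ± 0.24 on the log2 scale (edgeR adjusted p = 0.842).

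Of the 9 members other than Phlda1, 2 were thus called lower and none higher. Over all genes tested, 4.77% were called, 1.98% lower and 2.8% higher. The groups of 7 of these 9 did not overlap, all lower. Over all genes 47.8% did not overlap, 27.9% lower and 19.9% higher. The median log2 fold change of these 9 was -0.651, and that of all genes was -0.033. With Phlda1, which was chosen from its inputs, the median of the members was -0.735. The 2 calls did not hold when 1 input was left out: no member was called without vehicle 1, 2 or 3, without ORIN1001 1, 2 or 3, or without combination 2 or 3, and 1 was called without docetaxel 1. Without combination 1 there were 3. Without docetaxel 3 there were 6 (Dusp4, Dusp6, Spry2, Spry4, Etv5 and Egr1), while 13.4% of all genes were then called lower. The negative sign held for all 10 genes in each of the 19 fits.

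**Figure D2:**
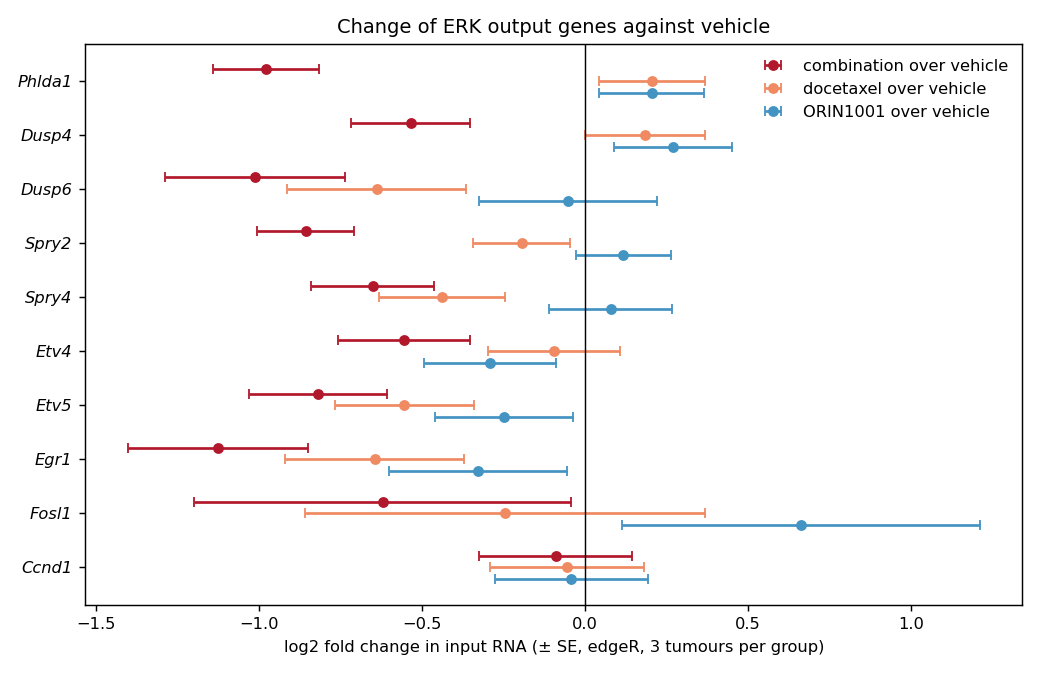
Log2 fold change of each gene in input RNA against vehicle, for the combination, docetaxel and ORIN1001 (points, edgeR estimate; bars, ± SE; 3 tumours per group). The combination points lie between -1.13 and -0.09, while the single-drug points lie on both sides of 0.

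The single drugs were then set against vehicle, with the same 3 vehicle tumours as controls in each comparison. No member was called in either, nor was any other gene by edgeR (0% of 17768), although 1857 genes for docetaxel and 787 for ORIN1001 had an unadjusted p under 0.05. With docetaxel, Dusp6 had a log2 difference of -0.64 ± 0.27, Egr1 -0.65 ± 0.28 and Etv5 -0.55 ± 0.21. Each of these rests in part on docetaxel tumour 3, the lowest docetaxel tumour for all 3 genes. Spry4 differed by -0.44 ± 0.19 and Spry2 by -0.19 ± 0.15, and Spry2 was the only member whose docetaxel and vehicle tumours did not overlap, beside 8.73% of all genes that were lower without overlap. The median over the 9 members other than Phlda1 was -0.245, beside -0.072 for all genes. With Phlda1 it was -0.22.

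With ORIN1001, Dusp4 had a log2 difference of 0.27 ± 0.18, Spry2 0.12 ± 0.15 and Egr1 -0.33 ± 0.27. Of the 9 members other than Phlda1, 1 did not overlap: Spry2 was higher in every ORIN1001 tumour than in any vehicle tumour. Over all genes, 7.06% were higher and 5.14% lower without overlap. Phlda1, chosen from its inputs, was also higher without overlap. The median over the 9 members was -0.042, and over all genes -0.013. With Phlda1 the median of the members was 0.018. DESeq2 and limma-voom also called none of the 9 members in either single-drug comparison.

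The effect of the combination against the sum of the single drugs divided the members. Besides Phlda1, the departure was -0.99 ± 0.26 (log2, SE) for Dusp4 and -0.78 ± 0.21 for Spry2. With docetaxel and ORIN1001 alone, Dusp4 stood at 0.18 and 0.27 against vehicle, and Spry2 at -0.19 and 0.12. The departure was -1.04 ± 0.84 for Fosl1, with the widest error of the group. For the other 6 members it was between -0.32 and 0.01, and smaller than its SE in all of them but Spry4 (-0.29 ± 0.27). For Dusp6 the combination stood at -1.01 and docetaxel alone at -0.64 against vehicle. For Etv5 these values were -0.82 and -0.55, and for Egr1 they were -1.13 and -0.65. No test is given for these departures, since the same contrast chose Phlda1.

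The combination was also set directly against each single drug. Against docetaxel, Dusp4 fell by 0.72 ± 0.18 (log2, edgeR adjusted p = 0.0391) and Spry2 by 0.66 ± 0.15 (adjusted p = 0.0273), 2 of 9 members. Over all genes 7.43% were called, 1.96% lower and 5.46% higher. Etv4 differed by -0.46 ± 0.20 (edgeR adjusted p = 0.188). The groups of Dusp4, Spry2 and Etv4 did not overlap, 3 of the 9 members other than Phlda1. Over all genes, 11.1% were lower without overlap. Phlda1 differed by -1.18 ± 0.16, also without overlap, and was not tested. Dusp6, Spry4, Etv5 and Egr1 had differences of -0.37, -0.21, -0.27 and -0.48, with overlapping groups. No member was called without docetaxel 1 or 2 or without combination 2 or 3. There was 1 call without vehicle 2 or 3, without any 1 of the ORIN1001 tumours or without combination 1, and there were 3 without docetaxel 3. In the fit without docetaxel 3, 23.8% of all genes were called, 11.3% lower.

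Against ORIN1001, 4 of 9 members were called, all lower. Over all genes 12.6% were called, 5.43% lower and 7.2% higher. Spry2 fell by 0.97 ± 0.15 (log2, edgeR adjusted p = 0.0124) and Dusp6 by 0.96 ± 0.28 (adjusted p = 0.0432). Dusp4 fell by 0.80 ± 0.18 (edgeR adjusted p = 0.0242) and Spry4 by 0.73 ± 0.19 (adjusted p = 0.0336). Egr1 differed by -0.80 ± 0.27 (edgeR adjusted p = 0.0741) and Etv5 by -0.57 ± 0.21 (adjusted p = 0.0918), with no overlap between the groups. Phlda1 differed by -1.18 ± 0.16 and was not tested. The groups of 7 of the 9 members other than Phlda1 did not overlap, all lower, beside 32% of all genes lower without overlap. Those of Phlda1 did not overlap either. No member was called without ORIN1001 3, 1 was called without ORIN1001 1 or 2 or combination 2 or 3, and 2 without combination 1. Without docetaxel 3 there were 6, with Egr1 and Etv5 added (edgeR adjusted p = 0.0204 and 0.0154). In that fit 35.2% of all genes were called, 16.7% lower. DESeq2 also called Egr1 against ORIN1001, and limma-voom called Egr1 and Etv5.

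Markers of other cell types were also read in these inputs. Over all genes, the combination called 4.77% against vehicle, 7.43% against docetaxel and 12.6% against ORIN1001. Neutrophil markers had a summed level of 19.0 to 29.9 CPM in combination, 27.9 to 47.2 in docetaxel and 50.9 to 79.0 in ORIN1001 tumours, against 41.6 to 87.8 CPM in vehicle tumours. The combination called 2 of 5 lower against vehicle (median log2 fold change -2.996), 1 of 5 lower against docetaxel (median -1.122) and 3 of 5 lower against ORIN1001 (S100a8, S100a9 and Retnlg, median -3.212). Csf3r, a neutrophil marker that was not called, differed by -0.07 ± 0.32, 0.06 ± 0.34 and -0.11 ± 0.32 in that order. Retnlg had at most 1.38 CPM in any input. T cell markers summed to 13.2 to 23.1 CPM in combination, 2.32 to 4.60 in docetaxel and 1.82 to 7.33 in ORIN1001 tumours, against 5.22 to 6.77 CPM in vehicle tumours. Of these 5, none was called against vehicle (median 1.73), 2 were called higher against docetaxel (Cd3e and Cd8a, median 2.319) and 3 against ORIN1001 (Cd3e, Cd8a and Cd4, median 2.258).

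Endothelial markers summed to 25.2 to 37.0 CPM in combination, 43.0 to 56.9 in docetaxel and 47.9 to 94.6 in ORIN1001 tumours, against 24.1 to 37.5 CPM in vehicle tumours. Cdh5 was called lower against ORIN1001, at -1.58 ± 0.29 on the log2 scale (edgeR adjusted p = 0.0167), and no other endothelial marker was called. The endothelial median was -0.217 against vehicle, -0.836 against docetaxel and -0.815 against ORIN1001. Fibroblast markers summed to 227 to 559 CPM in combination, 106 to 2478 in docetaxel and 225 to 848 in ORIN1001 tumours, against 208.5 to 225 CPM in vehicle tumours, with medians of 0.205 against vehicle, -0.659 against docetaxel and -0.875 against ORIN1001. Macrophage medians in that order were 0.683, 0.626 and 0.401 and epithelial medians -0.021, -0.432 and 0.164, and no fibroblast, macrophage or epithelial marker was called. Against vehicle, 3 of 6 epithelial markers were positive and 3 negative. Epcam stood at -0.91 ± 0.31 and Cdh1 at -0.37 ± 0.19, both lower without overlap. Of 5 macrophage markers 4 were positive, while Cd68 stood at -0.99 ± 0.61, lower without overlap. Over all genes, 27.9% were lower without overlap. The docetaxel 3 input was the only input with a marker of these lists at 0: 4 of 5 T cell (Cd3e, Cd3d, Cd8a and Trac), 2 of 5 neutrophil (S100a8 and Retnlg), 2 of 6 fibroblast (Dcn and Lum) and 1 of 5 macrophage markers (Cd68). The part of such markers in the levels of the ERK output genes, against vehicle or against a single drug, was not tested.

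Other genes of the pathway were counted in lists ordered by their place in it. Over all genes, the combination called 4.77% against vehicle, 1.98% lower and 2.8% higher. Against vehicle, the combination called 2 of 15 ligand genes higher and 1 lower. Pdgfb, a ligand of the platelet-derived growth factor receptors, had a log2 fold change of 1.92 ± 0.31 (edgeR adjusted p = 0.0312). Hgf, the ligand of Met, had 1.85 ± 0.36 (adjusted p = 0.0348), and Hbegf, a ligand of the EGF receptor, had -1.66 ± 0.38 (adjusted p = 0.0412) by edgeR. None of 15 tested receptor genes and none of 22 genes of the cascade from Ras to ERK and its kinase targets was called, with medians of -0.304 and -0.178.

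Of 17 tested brakes outside the members, 2 were called and both fell. Dusp5, a nuclear ERK phosphatase, fell by 1.16 ± 0.24 on the log2 scale (edgeR adjusted p = 0.0348), and Dusp7, a cytoplasmic one, by 0.87 ± 0.17 (edgeR adjusted p = 0.0348). Of 26 tested early response genes, Egr3, a relative of Egr1, fell by 1.48 ± 0.29 (edgeR adjusted p = 0.0348) and Ier3 by 1.17 ± 0.28 (edgeR adjusted p = 0.0446), and the median of the list was -0.122. Of 23 further output genes, Ccnd2, the cyclin D2 gene, rose by 1.54 ± 0.23 (edgeR adjusted p = 0.0275), and the median was -0.094. Each of these 8 named genes kept its sign in all 19 fits. Each was called in 3 to 7 of the 12 fits that left out 1 tumour.

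Against ORIN1001, 3 of 15 ligand genes rose with the combination and 1 fell, with a median of -0.058 beside -0.022 for all genes. This comparison called 12.6% of all genes, 5.43% lower and 7.2% higher. The total calls among the receptor, cascade and early response genes here and below did not exceed that share. Pdgfb rose by 2.09 ± 0.32 (edgeR adjusted p = 0.0124) on the log2 scale, Hgf by 1.90 ± 0.36 (edgeR adjusted p = 0.0168) and Pdgfa, a further platelet-derived growth factor chain, by 0.95 ± 0.24 (edgeR adjusted p = 0.031). Hbegf fell by 1.48 ± 0.38 (edgeR adjusted p = 0.0324). Of 15 receptor genes, Fgfr3, a receptor of fibroblast growth factors, was the one called and rose by 2.04 ± 0.39 (edgeR adjusted p = 0.0184), and the median was 0.018. Of 22 cascade genes 2 fell, Rps6ka1, a kinase that ERK activates, by 0.57 ± 0.16 (edgeR adjusted p = 0.0383) and Lamtor3, a scaffold for MEK and ERK, by 0.68 ± 0.19 (edgeR adjusted p = 0.039), and the median was -0.135.

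Of the 17 brakes, 4 were called lower against ORIN1001 and 1 higher, with a median of -0.108. Dusp7 fell by 1.27 ± 0.17 (edgeR adjusted p = 0.00801) on the log2 scale and Dusp5 by 1.64 ± 0.24 (edgeR adjusted p = 0.0124). Lrig1, a restraint on receptors of the ErbB family, fell by 1.04 ± 0.28 (edgeR adjusted p = 0.0363). Dusp2, a nuclear phosphatase known mainly from immune cells, rose by 1.58 ± 0.42 (edgeR adjusted p = 0.0348). Of 26 early response genes 1 fell and 2 rose, with a median of -0.098. Egr3 fell by 1.27 ± 0.29 (edgeR adjusted p = 0.0236), whereas Jund, a subunit of AP-1, rose by 1.06 ± 0.24 (edgeR adjusted p = 0.025) and Ier5 by 1.07 ± 0.27 (edgeR adjusted p = 0.0324).

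Of 23 further output genes, 3 were called higher against ORIN1001 and 1 lower, with a median of -0.152. Etv1, an ETS factor of the PEA3 family like Etv4 and Etv5, fell by 1.45 ± 0.34 (edgeR adjusted p = 0.0253) on the log2 scale. Cdk6, a kinase partner of the D cyclins, rose by 1.61 ± 0.37 (edgeR adjusted p = 0.0252), Ccnd2 by 0.92 ± 0.23 (edgeR adjusted p = 0.0306) and Phlda3, a relative of Phlda1, by 0.80 ± 0.19 (edgeR adjusted p = 0.0288). All genes named in these lists against ORIN1001 kept their sign in all 19 fits. Of the 12 fits that left out 1 tumour, 11 called Dusp7, 11 Pdgfb and 10 Dusp5, while 3 called Rps6ka1 and 6 to 9 each of the others.

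Against docetaxel, 2 of 15 ligand genes rose with the combination, Hgf by 1.75 ± 0.38 (edgeR adjusted p = 0.0252) on the log2 scale and Egf, a ligand of the EGF receptor, by 1.35 ± 0.36 (edgeR adjusted p = 0.0447). The median of the list was 0.283, beside -0.017 for all genes. Over all genes 7.43% were called, 1.96% lower and 5.46% higher. The total calls among early response and further output genes were near or below that share. Of 26 early response genes 2 fell, Ier3 by 1.23 ± 0.28 (edgeR adjusted p = 0.0291) and Fos, a partner of Jun proteins in AP-1, by 1.28 ± 0.31 (edgeR adjusted p = 0.0341), with a median of -0.135. Of 23 further output genes Ccnd2 rose, by 1.46 ± 0.24 (edgeR adjusted p = 0.0205), with a median of 0.097. None of 17 brakes, 22 cascade genes or 15 receptor genes was called, with medians of -0.156, -0.119 and 0.019. These 5 named genes kept their sign in all 19 fits, and the fits that left out 1 tumour called Egf 3 times of 12, Fos 6 times and Ier3, Hgf and Ccnd2 8 times each.

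Phlda1 was also compared with every expressed gene by its pattern over the 12 inputs. The measure was the root mean square difference between log2 CPM profiles, each centred on its own mean, so that 0 is an identical pattern. The closest of 12418 genes were Hagh, an enzyme of the glyoxalase pathway, at 0.126, Tk1, a thymidine kinase, at 0.173, Ap2m1 at 0.179, Elmod3 at 0.182 and Acadm at 0.188, where the median over all genes was 0.637. Of the members, Spry2 was closest, at 0.221 in place 21, followed by Dusp4 at 0.266 in place 86. Fosl1 was farthest, at 0.736. Without docetaxel tumour 3, Hagh was again closest, at 0.128, Spry2 stood in place 39 and Dusp4 in place 403.

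The J2 libraries show the RNA recovered with the antibody to double-stranded RNA. No control pulldown is among the 24 libraries, so recovery alone does not show that a transcript was double-stranded. Averaged over the 4 treatments, Dusp4 and Spry4 were higher in J2 than in input RNA of the same tumour, while Dusp6 and Egr1 were lower. These 4 calls among the 9 members other than Phlda1 are close to the background, since 55% of 17338 genes tested were called, 25% higher and 30% lower. The ratio is relative to the other RNA in each library and gives no absolute amount of recovered transcript.

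Dusp4 had a log2 ratio of J2 to input of 0.80 ± 0.10 (edgeR adjusted p = 1.20e-05), and the ratio was positive in 12 of 12 tumours. Its J2 level was 321, 172 and 280.1 CPM in combination, 325, 252 and 318 in docetaxel and 454, 385 and 457 in ORIN1001 tumours, against 298, 348 and 366 CPM in vehicle tumours. Dusp6, the other phosphatase, had the opposite sign, at -0.68 ± 0.10 (edgeR adjusted p = 5.48e-05), negative in 11 of 12 tumours. Its J2 level was 93.6, 85.1 and 66.5 CPM in combination, 166, 198 and 128 in docetaxel and 272, 169 and 278 in ORIN1001 tumours, against 174, 291 and 188 CPM in vehicle tumours. Egr1 was lower by 0.52 ± 0.11 (edgeR adjusted p = 0.00101), in 11 of 12 tumours. Docetaxel tumour 3 was the exception for both Dusp6 and Egr1.

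Spry4 had a log2 ratio of 0.35 ± 0.11 (edgeR adjusted p = 0.014), positive in 10 of 12 tumours. Phlda1 had -0.47 ± 0.11, negative in 9 of 12, given without a test because the inputs in this ratio chose the gene. The ratios of Spry2 (0.04 ± 0.07), Ccnd1 (0.08 ± 0.10), Etv4 (-0.11 ± 0.08), Etv5 (-0.16 ± 0.08) and Fosl1 (-0.47 ± 0.20) did not pass. The 4 calls held in all 19 fits.

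**Figure D3:**
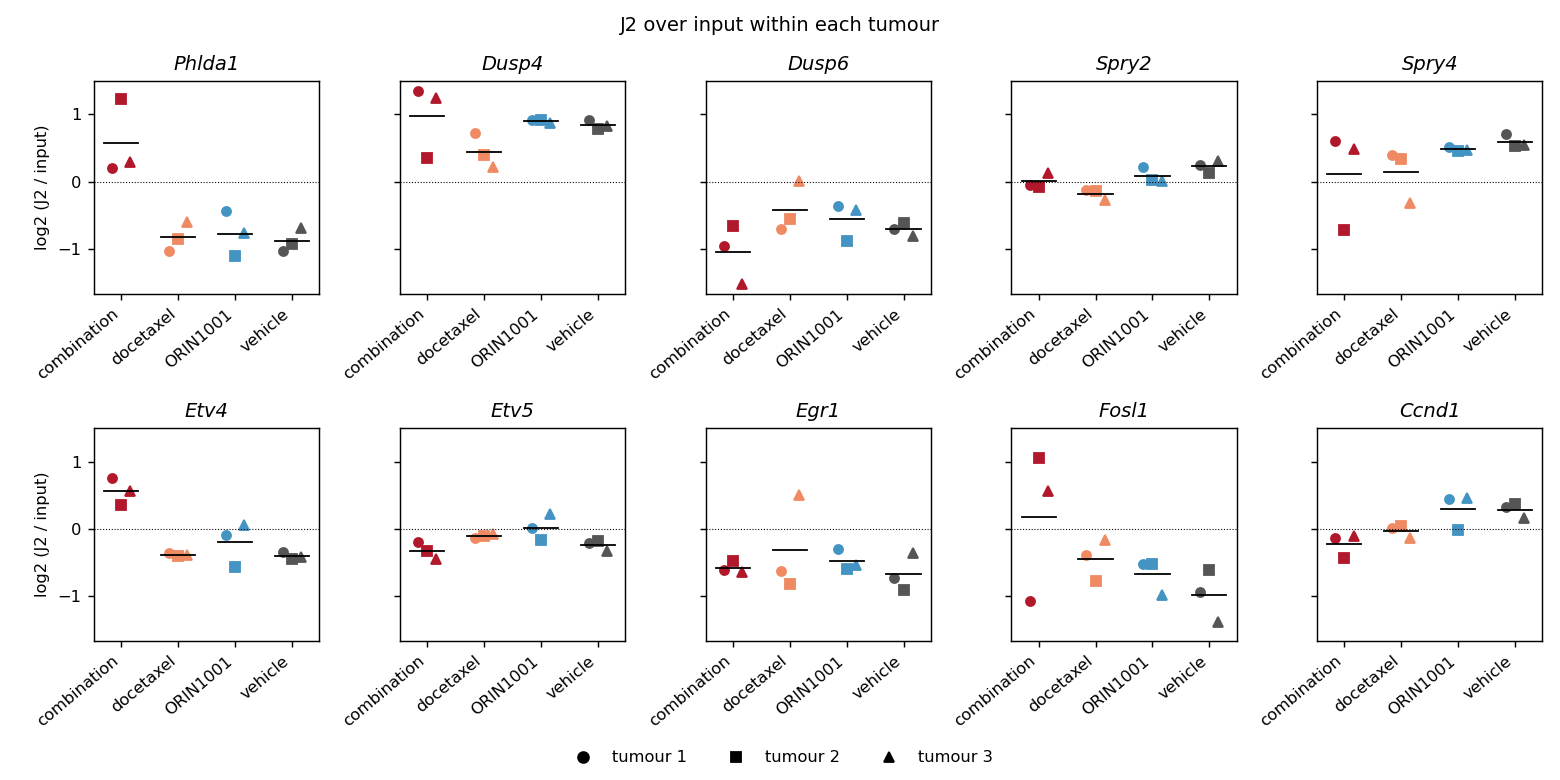
Log2 ratio of J2 to input CPM within each of the 12 tumours, by treatment; each symbol is 1 tumour, short lines are group means and the dotted line marks equal levels. Phlda1 and Etv4 lie above 0 in all 3 combination tumours, Phlda1 lies below 0 in the other 9 tumours, and Dusp4 lies above 0 in all 12.

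Phlda1 changed sides between treatments. Its log2 ratio was 0.21, 1.22 and 0.30 in the combination tumours, -1.03, -0.85 and -0.59 in docetaxel, -0.44, -1.10 and -0.76 in ORIN1001 and -1.02, -0.93 and -0.69 in vehicle tumours. All 3 combination tumours were positive and all 9 others negative. Its J2 level was 233, 399.5 and 224 CPM in combination, 256, 216 and 278 in docetaxel and 311, 189 and 289.7 in ORIN1001 tumours, against 167, 207.5 and 244 CPM in vehicle tumours. The combination and vehicle J2 levels overlapped, whereas the input levels, which chose the gene, did not. Combination tumour 2 was the highest J2 library. The change in J2 enrichment between combination and vehicle was 1.46 ± 0.30 on the log2 scale, given without a test because it contains those same inputs.

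Etv4 gave 1 call, the only one among the 9 other members for a change in J2 enrichment between combination and vehicle. Its log2 ratio was 0.76, 0.35 and 0.56 in combination, -0.35, -0.41 and -0.39 in docetaxel, -0.09, -0.56 and 0.05 in ORIN1001 and -0.35, -0.44 and -0.42 in vehicle tumours. The difference was 0.96 ± 0.23 (edgeR adjusted p = 0.00817), in a comparison that called 29.9% of all genes, 12.7% higher and 17.1% lower. Its J2 level was 315, 156 and 248 CPM in combination, 177, 169 and 186 in docetaxel and 202, 128 and 202 in ORIN1001 tumours, against 163.5, 233 and 150.3 CPM in vehicle tumours, with overlap between combination and vehicle. The call was lost without the tumour block (log2 1.001), and held in the other 17 alternative fits. The J2 and input libraries of the combination tumours correlated least of all pairs, as given with the processing below.

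The other changes in J2 enrichment did not pass. Fosl1 had 1.46 ± 0.61 (edgeR adjusted p = 0.0828), from 1, 5 and 10 counts in the combination J2 libraries and 6, 23 and 5 in those of vehicle. Ccnd1 had -0.51 ± 0.29 (edgeR adjusted p = 0.203), with ratios of -0.13, -0.44 and -0.11 in combination and 0.32, 0.37 and 0.17 in vehicle tumours. Spry4, Dusp6, Spry2, Etv5, Egr1 and Dusp4 lay between -0.44 and 0.15. Without combination 1, 2 members were called. No member was called by edgeR for a change in J2 enrichment with docetaxel or ORIN1001 against vehicle, and 0% of all genes were, with 730 and 605 genes at an unadjusted p under 0.05. DESeq2 called none of the members there, and limma-voom called 2 for ORIN1001.

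**Figure D4:**
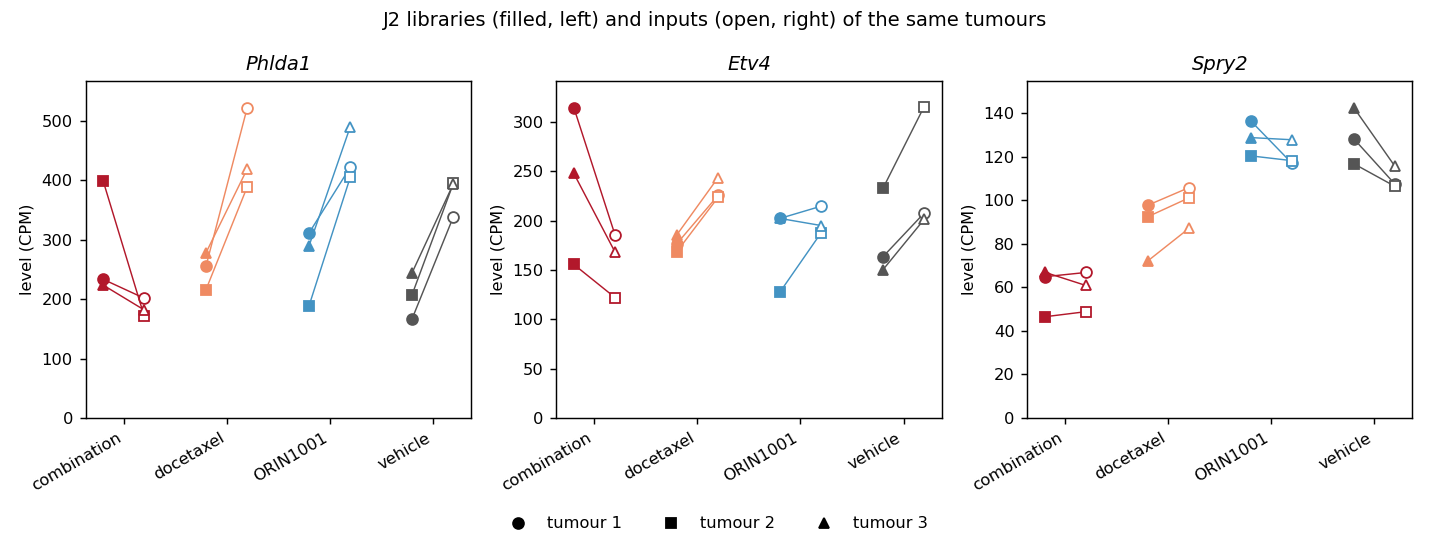
Levels of Phlda1, Etv4 and Spry2 in CPM on linear axes that start at 0, with the J2 library (filled, left) joined to the input (open, right) of the same tumour. Phlda1 lines fall to the right in the combination tumours and climb in the other 9, whereas Spry2 is low in both libraries of the combination tumours.

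Within each treatment, the calls among the 9 members differed in number. In combination tumours 3 were called, beside 36.8% of all genes: Dusp4 at 0.99 ± 0.20 (edgeR adjusted p = 0.00186), Etv4 at 0.56 ± 0.17 (adjusted p = 0.0174) and Dusp6 at -1.05 ± 0.21 (adjusted p = 0.00152). The median ratio of all genes was -0.133 there, and between -0.058 and -0.002 in the other treatments. In docetaxel tumours none was called, beside 23.9% of all genes. In ORIN1001 tumours Dusp4 was called, at 0.91 ± 0.20 (edgeR adjusted p = 0.00412), beside 28.1%. In vehicle tumours 5 were called, beside 41.4% of all genes, 20.2% higher and 21.1% lower. They were Dusp4 at 0.84 ± 0.20 and Spry4 at 0.60 ± 0.22, both higher, and Dusp6 at -0.70 ± 0.20, Egr1 at -0.66 ± 0.21 and Fosl1 at -1.01 ± 0.38, all lower. Some of these counts turned on 1 tumour. The vehicle count was 1 without vehicle 1 or 2, 2 without vehicle 3 and 3 without ORIN1001 1 or 3. Without docetaxel 3, 2 members were called in docetaxel and 4 in ORIN1001 tumours, beside 39.8% and 40.1% of all genes. Without combination 2 the counts were 1 and 2, and the shares of all genes in that fit are not given.

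The J2 levels themselves were also low in the combination tumours for most members. In the combination J2 libraries 6 of 10 members were below every vehicle J2 library, beside 28.6% of all genes: Dusp6, Spry2, Spry4, Etv5, Egr1 and Ccnd1. Spry2 had 64.9, 46.5 and 67 CPM in combination, 97.7, 92.4 and 72.1 in docetaxel and 136.5, 120.4 and 129 in ORIN1001 tumours, against 128, 117 and 143 CPM in vehicle tumours. Egr1 had 87.7, 80.2 and 56.5 CPM in combination, 103.5, 126 and 146 in docetaxel and 193, 123.5 and 123.5 in ORIN1001 tumours, against 121, 176 and 173 CPM in vehicle tumours. Both were thus lower in combination than in vehicle tumours in both kinds of library. In docetaxel J2 libraries Spry2, Spry4 and Ccnd1 were below vehicle without overlap, 3 of 10 beside 5.64% of all genes. In ORIN1001 J2 libraries Dusp4 was above vehicle without overlap, 1 of 10 beside 10.8%.

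Markers of other cell types also stood apart in the combination J2 libraries. Fibroblast markers summed to 1026 to 3876 CPM in combination J2 libraries, against 272 to 285 CPM in those of vehicle, and macrophage markers to 219.8 to 384.5 against 57.7 to 100.0 CPM. T cell markers summed to 8.51 to 9.65 CPM in combination and 1.72 to 3.69 CPM in vehicle J2 libraries. Endothelial markers spanned 18.5 to 28.9 against 13.4 to 19.1 CPM, neutrophil markers 27.7 to 32.5 against 21.0 to 47.6 CPM and epithelial markers 1075 to 1947 against 745 to 1096 CPM. The summed fibroblast, macrophage and T cell levels were thus higher without overlap. A combination J2 library had up to 2 of 5 endothelial, 2 of 5 neutrophil and 1 of 5 T cell markers at 0, and a vehicle J2 library up to 1 of 5 T cell markers. The part of these markers in the J2 levels of the 10 genes was not tested.

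The pathway lists were followed in the same comparison of J2 enrichment between combination and vehicle, which called 29.9% of all genes, 12.7% higher and 17.1% lower, with a median log2 change of -0.005. Of 26 early response genes tested, 9 were called higher and 2 lower, with a median of 0.842. Ier5 had a log2 change of 1.74 ± 0.29 (edgeR adjusted p = 0.00138), Ier2 1.52 ± 0.26 (edgeR adjusted p = 0.00151) and Myc 2.14 ± 0.43 (edgeR adjusted p = 0.00294). Junb, a subunit of AP-1, had 1.5 ± 0.28 (edgeR adjusted p = 0.00223). Of 22 cascade genes 3 were called higher and 8 lower, with a median of 0.036. Braf, a kinase that activates MEK, had a log2 change of -2.35 ± 0.38 (edgeR adjusted p = 0.00136). Rps6ka3, a kinase that ERK activates, had -2.52 ± 0.42 (edgeR adjusted p = 0.00145) and Sos1, an exchange factor of Ras, had -1.44 ± 0.32 (edgeR adjusted p = 0.0055).

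Among the ligands 1 of 13 was called higher and 3 lower in J2 enrichment, with a median of -0.876. The total calls among ligand and receptor genes were near the share of all genes called, 29.9%, with 12.7% higher and 17.1% lower. Kitl, the ligand of Kit, had a log2 change of -2.36 ± 0.41 (edgeR adjusted p = 0.00162), Nrg1, a ligand of ErbB receptors, -1.80 ± 0.49 (edgeR adjusted p = 0.014) and Tgfa, a ligand of the EGF receptor, -0.94 ± 0.25 (edgeR adjusted p = 0.0127). Pdgfa was the one called higher, at 0.91 ± 0.30 (edgeR adjusted p = 0.0328). Of 14 receptor genes 3 were called higher and 2 lower, with a median of -0.115. Erbb2 had a log2 change of 0.97 ± 0.27 (edgeR adjusted p = 0.0153) and Epha2, an ephrin receptor, 1.02 ± 0.29 (edgeR adjusted p = 0.0176), while Met had -1.05 ± 0.28 (edgeR adjusted p = 0.0125) and Egfr -0.98 ± 0.30 (edgeR adjusted p = 0.0242).

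Of 17 brakes 2 were called higher and 3 lower in J2 enrichment, with a median of -0.089. The total calls among brakes were near the share of all genes called, 29.9%, with 12.7% higher and 17.1% lower. Rasal1, a GTPase-activating protein of Ras, had a log2 change of 1.37 ± 0.31 (edgeR adjusted p = 0.00538) and Dusp9, a cytoplasmic ERK phosphatase, 2.01 ± 0.47 (edgeR adjusted p = 0.007). Nf1, another GTPase-activating protein of Ras, had -1.15 ± 0.29 (edgeR adjusted p = 0.00921) and Spred1, a relative of the Sprouty proteins, -1.34 ± 0.38 (edgeR adjusted p = 0.0167). Of 23 further output genes 3 were called higher and 6 lower, with a median of -0.338. Etv1 had a log2 change of -2.43 ± 0.48 (edgeR adjusted p = 0.00288), Elk4, an ETS factor that acts with serum response factor, -1.5 ± 0.31 (edgeR adjusted p = 0.0037), Cdk6 -1.64 ± 0.36 (edgeR adjusted p = 0.00451) and Bcl2l11, which encodes the cell death protein Bim, -1.07 ± 0.25 (edgeR adjusted p = 0.00696).

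All genes named in these J2 lists kept their sign in all 19 fits. Of the 12 fits that left out 1 tumour, 7 called Pdgfa, 7 Egfr, 8 Spred1, 10 Tgfa and 10 Epha2, and 11 or 12 called each of the others. The combination J2 libraries held the highest shares of ribosomal RNA, 22.9% to 57.3% as given above. In the fit without these loci, 1 member was again called. The part of library depth in these changes was not tested.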

How the data were processed

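The deposited values are read counts per gene, whole numbers that the authors did not normalise as far as the values show. Tools listed in the submitters' processing notes are fastp 0.23.2, STAR 2.7.3a and featureCounts 2.0.3, with mm10 as the genome build. Per the labels' protocols, libraries were prepared with Illumina's stranded total RNA kit, which removes ribosomal RNA. The sources used here give neither the strand setting of the counting nor what was done with reads that align to more than 1 place, so counts of overlapping and antisense genes are uncertain. Of 53465 rows, 53274 matched a symbol, 50604 with the same identifier version. A table of transposable elements was not used here.

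Tests used edgeR 4.0.16 in R 4.3.3: TMM scaling, filterByExpr with a minimum count of 10 and a minimum total of 15, a two-sided quasi-likelihood F test, Benjamini-Hochberg adjustment over all genes and a threshold of 0.05. The 12 inputs entered 1 fit with a coefficient for each treatment (17768 genes). All 24 libraries entered a second fit (17338 genes), blocked by tumour, with a J2 coefficient for each treatment. J2 enrichment is that coefficient, and its change is a difference of coefficients. Each SE of a log2 difference was worked back from the F statistic, as the absolute estimate over the square root of F. The labels give the J2 and input library of a tumour the same treatment and number, and 10 of these 12 pairs correlated above 0.1 after group means were removed (0.083 to 0.687). The combination pairs were the lowest, at 0.083, 0.094 and 0.104 for tumours 1, 2 and 3. Those of the other treatments ran from 0.213 to 0.687. The pairing of J2 and input is thus least visible in the combination tumours. CPM used TMM over 24 libraries, at most 0.0666 on the log2 scale from the scaling of the input fit. Replicates are called biological in the labels. Replicate libraries differed by more than sampling noise (reduced chi-square of 12.57 or more for every pair), so none was taken as a repeat of another.

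In simulated counts for the inputs, combination against vehicle (17372 genes), 83.8% of genes changed by 1 on the log2 scale and 100% of those changed by 2 were recovered. For the J2 average (16584 genes) 96.9% and 100% were. How closely the spread of the simulated counts matched that of the tumours is not given here. These shares are thus not the power of the study. In the measured inputs, combination against vehicle, Dusp6 at -1.01 ± 0.28 did not pass (edgeR adjusted p = 0.0551). Egr1 at -1.13 ± 0.28 passed (edgeR adjusted p = 0.0463). Alternatives were RLE size factors, DESeq2 1.42.0, limma-voom with sample quality weights (limma 3.58.1), no filter on low counts, removal of ribosomal RNA loci, another choice of block, and each tumour left out in turn. The 10 genes, the pathway and marker lists and the ribosomal RNA loci were chosen with earlier results of these data known. All 10 members are described. From the pathway lists, genes were named that passed the threshold and whose groups did not overlap, at most 4 per list and comparison by smallest p, in inputs of the combination against vehicle and each single drug and in J2 enrichment of the combination against vehicle. For other comparisons these lists are not described, and 1 result that meets the rule is not reported here. Phlda1 was not tested in any comparison. Promoters are RefSeq's, GRCm38.p6.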

Additional observations from a re-analysis of the deposited data

Results flagged for a closer look

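For 4 of the members the log2 ratio of J2 to input lay on different sides of 0 in all tumours of different treatments. The treatments were compared pair by pair, and the share of all genes with such a split is not given. The count therefore does not set the members apart from other genes. J2 enrichment between combination and vehicle was called for 29.9% of all genes. For Etv4 the difference was tested: J2 enrichment was higher with the combination than with vehicle by 0.96 on the log2 scale (edgeR adjusted p = 0.00817), positive in 3 of 3 combination tumours and negative in 3 of 3 vehicle tumours. The mean ratio was 0.557 ± 0.206 in combination, against -0.384 ± 0.028 in docetaxel tumours (SD, n = 3 each), a difference of 0.94, with every tumour of each group on its own side of 0. This second difference was not tested.

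For Phlda1 every combination tumour had a positive ratio and every other tumour a negative one. The mean was 0.578 ± 0.56 in combination, -0.823 ± 0.22 in docetaxel, -0.765 ± 0.331 in ORIN1001 and -0.878 ± 0.171 in vehicle tumours (log2, SD, n = 3 each). The combination exceeded docetaxel by 1.4, ORIN1001 by 1.34 and vehicle by 1.46. These differences were not tested, since the combination inputs chose the gene.

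Spry2 had a negative ratio in all docetaxel tumours (mean -0.172 ± 0.087) and a positive one in all ORIN1001 (0.086 ± 0.118) and vehicle tumours (0.231 ± 0.087; SD, n = 3 each). The differences of docetaxel from ORIN1001, -0.26, and from vehicle, -0.4 by the ratios per tumour, put every docetaxel tumour on the other side of 0, and that from ORIN1001 was not tested. By edgeR the change against vehicle had an adjusted p of 0.914. Ccnd1 had a negative ratio in all combination tumours (mean -0.226 ± 0.183) and a positive one in all vehicle tumours (0.287 ± 0.107; SD, n = 3 each), a difference of -0.51, for which edgeR gave an adjusted p of 0.203.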

How the results depend on the processing

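Of the comparisons in inputs, those of a single drug with vehicle called no member under any alternative. For combination against vehicle, 2 members were called, and 4 with RLE size factors, 4 with DESeq2, 7 with limma-voom and 0 with the replicate block. For combination against docetaxel, 2 were called, and 1 with RLE size factors, 5 with limma-voom, 0 with no filter on low counts and 0 with the replicate block. For combination against ORIN1001, 4 were called, and 2 with the replicate block. The shares of all genes called with these alternatives are not given here. Counts of members called with them therefore do not set the members apart from other genes. The replicate numbers did not pair the inputs across treatments: correlations between same-numbered inputs ran from -0.227 to 0.108, and 1 of 18 was above 0.1. Leaving out 1 tumour gave 0 to 6 calls for combination against vehicle, 0 to 3 against docetaxel and 0 to 6 against ORIN1001. The members' medians then ran from -0.899 to -0.673 against vehicle and from -0.591 to -0.289 against docetaxel. The cause of these shifts was not tested.

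For J2 against input, DESeq2 called 5 members in combination, 1 in docetaxel, 3 in ORIN1001 and 8 in vehicle tumours, and limma-voom called 5, 4, 6 and 9, with 7 for the average. In vehicle tumours no filter gave 3 and no replicate block gave 1. Leaving out 1 tumour gave 0 to 2 in docetaxel, 1 to 4 in ORIN1001 and 1 to 5 in vehicle tumours. The median in combination was 0.239 with limma-voom and -0.017 to 0.118 with 1 tumour left out, and that in ORIN1001 was 0.019 and -0.163 to 0.071. For J2 enrichment, combination against vehicle, DESeq2 called 2, limma-voom 4 and the fit with no replicate block 0, and leave-outs 1 to 2, with medians of -0.111 to 0.042. Limma-voom called 2 for ORIN1001 against vehicle. For J2 as well, the shares of all genes called with the other methods are not given. Those counts too do not set the members apart. Medians with 1 tumour left out were -0.119 to 0.037 for docetaxel and 0.061 to 0.247 for ORIN1001 against vehicle.

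Signs turned for small differences that were not called. In inputs, docetaxel against vehicle, Ccnd1 was 0.001 with RLE size factors, 0.001 with DESeq2, 0 with limma-voom and -0.146 to 0.024 with 1 tumour left out, Etv4 was -0.204 to 0.113 and Fosl1 -1.009 to 0.293. For ORIN1001 against vehicle, Ccnd1 was 0.063 with limma-voom and -0.195 to 0.142 with 1 tumour left out, Dusp6 -0.178 to 0.13 and Spry4 -0.012 to 0.152. For combination against docetaxel, Spry4 was 0.078 with limma-voom, Fosl1 -0.925 to 0.378 and Ccnd1 -0.115 to 0.034 with 1 tumour left out. For combination against ORIN1001, Ccnd1 was 0.016 with RLE size factors, 0.016 with DESeq2 and -0.241 to 0.094 with 1 tumour left out. For J2 enrichment, combination against vehicle, Dusp4 was -0.057 to 0.441, Etv5 -0.166 to 0 and Egr1 -0.039 to 0.283. Depth limits Fosl1 most, with 2 counts in the docetaxel 3 input.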
